A study of Mus musculus with 8 samples.

Results

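NA2 is a noradrenergic subtype of neurons in the mouse stellate ganglion and holds 175 of the 1303 neurons in the data. Its cells are those that the authors' cell annotation calls NA2, with no further choice by expression. The comparison groups are NA1, which joins the noradrenergic subtypes NA1a, NA1b and NA1c (866 neurons), and the noradrenergic subtype NA3 (99 neurons).

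The stellate ganglion is a sympathetic ganglion at the base of the neck whose neurons send axons to the heart, the forelimb and other organs of the upper body. Noradrenergic neurons turn tyrosine into noradrenaline through tyrosine hydroxylase (Th), aromatic amino acid decarboxylase (Ddc) and dopamine beta-hydroxylase (Dbh), load it into vesicles through the vesicular monoamine transporter (Slc18a2) and release it from varicosities along the axon. Many of them co-release neuropeptide Y, encoded by Npy, which constricts vessels and dampens release from neighbouring nerve endings.

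All neurons come from adult male mice of strain C57BL6/J, 8 to 10 weeks of age, of a single condition. Each mouse had received an adeno-associated virus with GFP in the heart and one with tdTomato in the front paws, and left and right ganglia were digested together before capture of single cells with the 10x Genomics system. Captured transcripts are counted there by molecular barcodes (UMIs), so that copies made by amplification count once. Mice are the replicates, and 5 of them (replicates 1 to 5) could be matched by name to a sample, with 150 NA2 cells between them, while 25 NA2 cells belong to 3 mouse names without a match, each with fewer than 10 NA2 cells, which entered no fit and are described apart. The labels do not say how the ganglia divide over the mice, so that p-values measure only the spread between these samples. Because the subtypes are clusters that the authors drew from the same cells, a call below says how steady a difference was over mice and is no test of the grouping.

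Replicates 1 to 5 held 27, 14, 49, 43 and 17 NA2 cells, which is 15.9%, 5.96%, 29.7%, 18.3% and 8.63% of their neurons. The exact 95% Clopper-Pearson intervals of the lowest share (3.29% to 9.79%, replicate 2) and the highest (22.8% to 37.3%, replicate 3) did not overlap, and the mean share was 15.7% ± 9.32 (SD, n = 5). These intervals cover counting error only. NA2 neurons had a median of 2461 UMIs per cell (lowest 1535, highest 19377) against 4012.5 in NA1 and 6773 in NA3. Low depth was not particular to NA2. Within NA1 the medians were 6524.5 in NA1a, 3252 in NA1b and 2685 in NA1c, and the Ach1 neurons had 2206.5. Neither reporter was found in them: 0 of 175 NA2 cells held a UMI of GFP or of tdTomato, which allows a share of cells with a UMI of up to 1.71% for each if the cells are taken as independent. In NA1, 5 cells (0.577%) held GFP and 17 (1.96%) tdTomato, and in NA3 the counts were 1 (1.01%) and 3 (3.03%). Reporter UMIs were rare in every group, and whether their share differs between groups was not tested.

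The markers behind the name were present. Dbh was detected in 154 of 175 NA2 cells (88%), Th in 151 (86.3%) and Npy in 146 (83.4%), and 111 cells (63.4%) held all 3 transcripts. Only 4 cells (2.29%) held neither Dbh nor Th. When every cell was thinned to 2000 UMIs, which left 124 NA2, 738 NA1 and 90 NA3 cells, Dbh was found in 87.1%, 82.1% and 65.6% of them, Th in 76.6%, 66.8% and 43.3%, and Npy in 71.0%, 82.4% and 73.3%. Detection of Dbh was not particular to noradrenergic neurons: in the glutamatergic subtype (Glut, 37 cells) 83.8% of cells held it, 75.7% held Th and 59.5% Npy. A share of cells with a UMI therefore does not set NA2 apart. Neuronal transcripts were found in nearly all NA2 cells, with Prph (peripherin) in 100%, Pcsk1n in 99.4%, Syt1 in 96% and Snap25 in 86.9%. The study had picked out its neurons by these same transcripts, and it also names Dbh and Th for that step. Detection of these genes is therefore partly fixed by the choice of cells and is no independent evidence of what NA2 is.

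Some NA2 cells share a barcode with a cell of another mouse. Over all neurons, 21 barcodes occurred in 2 to 5 mice and covered 73 cells, of which 55 were NA2, 15 Ach2 and 3 Glut, while no cell of NA1a, NA1b, NA1c, NA3 or Ach1 was among them. The cells of 20 of these 21 barcodes had 1 subtype each. In NA2 this touched 31.4% of cells, and in replicates 1 to 5 the shared cells numbered 17 of 27, 8 of 14, 14 of 49, 14 of 43 and 2 of 17. Copies of a barcode were not the same profile deposited again, since their median Pearson r over genes was 0.499 (70 pairs) against 0.467 for other pairs of NA2 cells from different mice. Their mitochondrial share had a median range within a barcode of 0.991 percentage points, against an interquartile range of 5.42 over the NA2 cells of replicates 1 to 5. The shared NA2 cells by themselves were narrower, with quartiles of 3.64% and 6.42%. A range over a few copies is also another measure than an interquartile range. Within mice, the median UMIs of shared and unshared NA2 cells were 2186 and 1941.5 in replicate 1, 1940.5 and 3079.5 in replicate 2, 2082.5 and 2899 in replicate 3, 2203.5 and 2448 in replicate 4, and 2249 and 8368 in replicate 5, so that shared cells were the shallower in 4 of 5 mice. All shared barcodes lay in replicates 1 to 5, which by their sample names form 1 batch (batch 2), and none in the unmatched mice. Whether the copies are separate cells or reads of 1 cell that passed between libraries of the batch was not tested, and the NA2 cell numbers of each mouse rest on it. Leaving them out, the NA2 shares were 6.71%, 2.68%, 24.0%, 13.4% and 7.73% in replicates 1 to 5, with a mean of 10.9%. The main comparisons below are therefore given with and without these cells. Without them replicate 2 falls under 10 NA2 cells, so that 95 NA2 cells in 4 mice remain against NA1 and replicates 4 and 5 remain against NA3.

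A gene's level in a mouse, given for groups that had 10 or more cells there, is the mean of its UMIs per 10000 over cells, and a difference is that of log2(level + 0.1) fitted with limma with the mouse as a block. A gene was called at a Benjamini-Hochberg adjusted p below 0.05 over all 5237 genes tested. NA3 had 10 or more cells in replicates 2, 4 and 5 only. Values after ± are SDs over mice, with n = 5 for NA2 and NA1 and n = 3 for NA3, and values in parentheses after a difference are standard errors.

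Against NA1, 1208 genes (23.1% of those tested) were called higher and 1741 (33.2%) lower in NA2, together 56.3%, and the median over all genes was -0.16 (log2). A share of 50.2% of genes was called with all mice on the same side. Levels of the 5 mice did not overlap between the groups for 41.9% of genes. Against NA3, 1023 genes (19.5%) were called higher and 1068 (20.4%) lower, 39.9% in all (38.3% with all mice on the same side), with separate levels for 31.8% and a median of -0.03. Without shared barcodes the calls against NA1 numbered 862 higher (16.7%) and 1497 lower (29%) of 5163 genes, 45.7% in all. Of the calls on all cells, 64.4% of those higher and 81.2% of those lower were called again. Against NA3 they numbered 737 (14.3%) and 813 (15.7%), 30% in all, and 62.1% and 69.0% of the calls were made again. In the 3 unmatched mice pooled, which share no barcode, 95.9% of the genes called higher than NA1 and 96.8% of those called lower had the same direction.

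A wide gap between NA2 and the other noradrenergic neurons lay in RNAs that stay in the nucleus. Long noncoding RNAs such as Meg3, Malat1, Miat, Neat1 and Snhg11 are transcribed and kept in the nucleus, where Malat1 and Neat1 mark nuclear speckles and paraspeckles. They made up a median of 0.819%, 0.570%, 0.566%, 0.217% and 0.418% of the UMIs of an NA2 cell in replicates 1 to 5, and 11.5%, 14.4%, 14.4%, 14.4% and 13.1% of those of an NA1 cell. The mean of 0.518% ± 0.222 against 13.6% ± 1.29 was lower in 5 of 5 mice, and the exact two-sided sign-flip permutation p over mice was 0.0625 (adjusted 0.0625 over 6 measures), the smallest that 5 mice allow. Against NA3 the share was lower in 3 of 3 mice, 0.402% ± 0.177 against 8.53% ± 3.34 (exact permutation p = 0.25, the smallest that 3 mice allow). Without shared barcodes the means were 0.389% ± 0.191 and 13.4% ± 1.38 in 4 mice (exact permutation p = 0.125, the smallest possible).

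**Figure D1:**
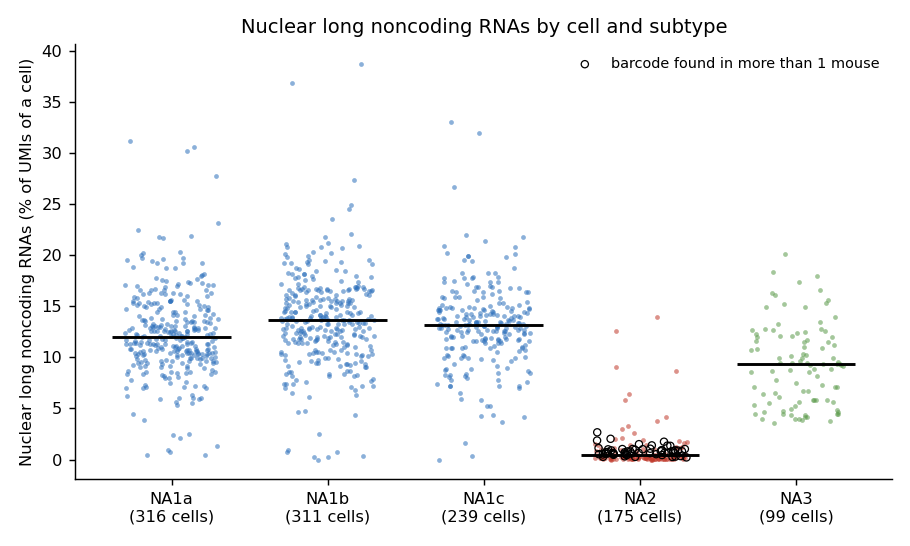
Share of nuclear long noncoding RNA in each neuron (percent of its UMIs, y axis) for NA1a (316 cells), NA1b (311), NA1c (239), NA2 (175) and NA3 (99), with a black line at each median and open circles for cells whose barcode occurs in more than 1 mouse. The NA2 cells lie near 0, with a median of 0.450%, and the medians of NA1a, NA1b, NA1c and NA3 lie at 12.0%, 13.6%, 13.2% and 9.31%.

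The gap held cell by cell. A share below 2% was found in 161 of 175 NA2 cells (92%), in 15 of 866 NA1 cells (1.73%) and in 0 of 99 NA3 cells, and 170 NA2 cells (97.1%) lay below the 5th percentile of NA1 (6.40%). In the plot of the share in each neuron, NA2 forms a band near 0 in which cells with shared and unshared barcodes mix. Other subtypes also had low medians, 0.1001% in Glut and 2.13% in Ach1, while Ach2 had 12.2%. Within Ach2 the median was 1.11% in the 15 cells with shared barcodes and 15.5% in the other 47. In the 3 unmatched mice the NA2 medians were lower still, at 0.0422%, 0.0426% and 0.0690% against 10.9%, 11.3% and 11.6% in NA1.

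Meg3, an imprinted noncoding RNA of the Dlk1-Dio3 region (GRCm38 chr12:109541001-109571726, plus strand), was at 15.5, 10.1, 17.7, 8.72 and 16.7 UMIs per 10000 in NA2 and at 423, 657, 348, 350 and 329 in NA1. The 2 groups were far apart in every mouse, and NA3 lay between them at 72.6, 210 and 147. The difference to NA1 was -4.93 (0.28) with a limma adjusted p of 7.12e-11, and -5.00 without shared barcodes, while that to NA3 was -3.38 (0.35). Of the 175 NA2 cells, 47 (26.9%) had no UMI of Meg3, against 6 of 866 NA1 cells (0.693%).

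Malat1, the most abundant of these noncoding RNAs in NA1, was at 84.3, 98.4, 70.1, 35.1 and 83.3 in NA2 against 608, 662, 1046, 943 and 817 in NA1, a difference of -3.51 (0.30) with a limma adjusted p of 1.12e-08. NA3 had 565, 862 and 800, all near the NA1 range, and the difference of NA2 to it was -3.42. Without shared barcodes the difference of Malat1 to NA1 was -3.78. Fewer NA2 cells lacked Malat1 than Meg3: 13 (7.43%) had none. Snhg11, a noncoding RNA abundant in neurons, had a mean of 6.29 ± 2.68 in NA2 and 98.4 ± 20.4 in NA1 (-4.05), and Miat 0.182 ± 0.146 and 7.10 ± 1.98 (-4.83). Of the 10 nuclear noncoding RNAs tested, 8 were called lower than in NA1 and 7 lower than in NA3, none higher, with medians of -4.04 and -2.70. Pvt1 and Snhg20 (-1.07 and -0.54) and Snhg12 (0.04) had the smallest differences, and the list summed to 49.0 to 113 UMIs per 10000 per mouse in NA2, to 1132 to 1546 in NA1 and to 660 to 1147 in NA3. Without shared barcodes 7 were called lower and 0 higher in either comparison. Among all 43 long noncoding genes tested, 29 were called lower and 2 higher than in NA1, with a median of -2.15. A gene was tested when its level reached 0.5 in enough profiles of any group. Members that are low in NA2, such as Miat, entered through other groups and could hardly be called higher. The counts of called noncoding genes are therefore partly fixed by this filter. The same limit holds for other lists with members that are low in NA2.

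Messenger RNAs of splicing and nuclear speckle proteins went the same way. Of 27 tested, 20 were called lower than in NA1 and 0 higher (median -1.27), and 23 lower than in NA3 (median -1.39). Snrnp70, the 70K protein of the U1 particle that recognises the start of an intron (GRCm38 chr7:45376453-45395742, minus strand), was at 0.909, 0.111, 0.563, 0.805 and 0.737 in NA2 and at 10.7, 18.8, 9.31, 11.5 and 8.39 in NA1. It differed by -4.15 (0.31), and by -4.48 without shared barcodes. Nktr and Pnisr, a pair of arginine- and serine-rich nuclear proteins, differed by -3.53 and -3.14. Members near 0 were Srsf2 (0.05), Rsrp1 (0.13) and Srsf3 (0.48), which code for splicing factors of the SR type or for a relative of them. Without shared barcodes 19 of 27 were called lower and 1 higher. Less nuclear RNA captured from an NA2 cell and lower expression of these genes cannot be told apart here.

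The genes highest in NA1 over NA2 were Col5a3, Meg3, Miat, Ryr2, Eml5, Lncpint, Fam193b, Neat1, Safb2 and Snrnp70. Col5a3, an alpha chain of type V collagen (GRCm38 chr9:20770050-20815067, minus strand), was at 0.378, 0.397, 0.552, 0.272 and 0.886 in NA2 and at 15.1, 25.5, 20.0, 17.3 and 16.5 in NA1. The subtypes within NA1 differ widely in Col5a3, with means of 7.06 in NA1a, 34.2 in NA1b and 12.5 in NA1c, and NA2 was below each of them by -3.63, -5.91 and -4.48. The difference to NA1 was -5.05 (0.29), and to NA3 -3.79, or -5.68 and -4.35 without shared barcodes. Ryr2, the calcium release channel of the endoplasmic reticulum, had means of 0.228 and 4.84 (-4.39).

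**Figure D2:**
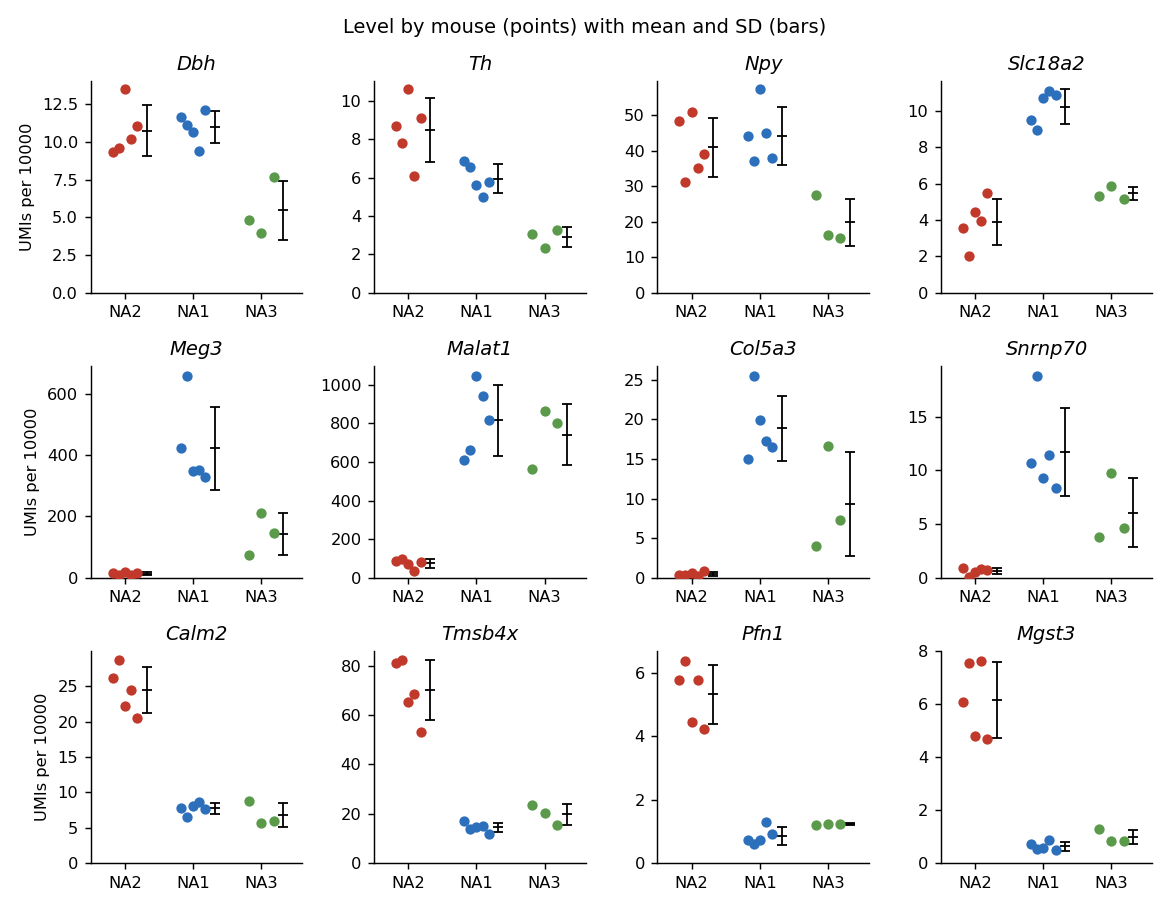
Mean level (UMIs per 10000, y axis, 1 panel per gene) of Dbh, Th, Npy, Slc18a2, Meg3, Malat1, Col5a3, Snrnp70, Calm2, Tmsb4x, Pfn1 and Mgst3 in NA2, NA1 and NA3, with 1 point per mouse and the mean and SD over mice. Dbh and Npy overlap between NA2 and NA1, Meg3, Malat1, Col5a3, Snrnp70 and Slc18a2 are lower in every NA2 profile than in any NA1 profile, and Calm2, Tmsb4x, Pfn1 and Mgst3 are higher in every NA2 profile than in any NA1 or NA3 profile.

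Most genes of the noradrenaline pathway were higher in NA2 than in NA1 together, while Dbh was not called and the vesicular transporter was lower. Dbh (GRCm38 chr2:27165233-27183200, plus strand) was at 9.33, 9.58, 13.5, 10.2 and 11.0 UMIs per 10000 in NA2 and at 11.7, 11.1, 10.6, 9.41 and 12.1 in NA1, ranges that overlap (difference -0.04, SE 0.17, limma adjusted p = 0.850). NA3 was lower at 4.79, 3.95 and 7.67, and the difference to it was 0.97 (0.20). Th, the rate-limiting enzyme, was at 8.70, 7.80, 10.6, 6.11 and 9.14 in NA2 against 6.86, 6.53, 5.63, 4.98 and 5.76 in NA1. It was higher in 5 of 5 mice though the ranges overlap, with a difference of 0.49 (0.16) and a limma adjusted p of 0.0145. Without shared barcodes the differences of Dbh and Th to NA1 were 0.19 (not called) and 0.57. In 5 of 19 alternative settings Th was no longer called against NA1, with adjusted p-values up to 0.244.

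Slc18a2, which loads noradrenaline into vesicles, ran the other way: 3.53, 2.03, 4.45, 3.92 and 5.48 in NA2 and 9.47, 8.97, 10.7, 11.1 and 10.9 in NA1. All NA2 levels lay below all NA1 levels, and the means of NA1a, NA1b and NA1c (11.8, 8.28 and 11.2) were each above NA2. The difference was -1.44 (0.18) with a limma adjusted p of 1.91e-06, and -1.01 without shared barcodes. Against NA3 (5.32, 5.87 and 5.17) Slc18a2 differed by -0.57 with an adjusted p of 0.0481, a call that 15 of 17 alternative settings lost, without shared barcodes among them (-0.12).

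The cofactor of tyrosine hydroxylase is tetrahydrobiopterin, made from GTP in a route that starts with Gch1 and Pts. Gch1 was at 4.71, 6.10, 3.81, 4.93 and 3.10 in NA2 and at 2.58, 1.85, 1.58, 1.87 and 1.81 in NA1 (1.17, SE 0.23), and Pts had means of 1.61 ± 0.430 and 0.436 ± 0.136 (1.66, SE 0.35). Both were higher in 5 of 5 mice, and without shared barcodes they differed by 0.75 and 1.36. Ddc had 7.80 ± 1.92 against 5.00 ± 0.499 (0.61). Over 12 pathway genes tested, 8 were called higher and 1 lower than in NA1 (median 0.55), and 10 higher and 1 lower than in NA3 (median 0.96). Without shared barcodes the counts against NA1 were 7 and 1. In the fit with the NA1 subtypes apart, 6, 6 and 8 of 13 were called higher than in NA1a, NA1b and NA1c. In the same order 1, 2 and 1 were called lower. The median difference to NA1 in the unmatched mice was 0.24. The summed level of all 13 listed genes ran from 67.5 to 87.9 in NA2, from 65.3 to 73.4 in NA1 and from 39.3 to 40.3 in NA3.

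Among transcription factors of the sympathetic lineage, Phox2a, which drives the noradrenergic fate, stood out. It was at 9.90, 6.85, 8.74, 7.79 and 6.15 in NA2, at 2.92, 1.85, 2.30, 2.75 and 2.14 in NA1 and at 2.47, 0.761 and 0.932 in NA3. No mouse overlapped, and the differences were 1.68 (0.23) and 2.45 (0.28), or 1.53 and 2.40 without shared barcodes. Of 17 factors tested, Phox2a alone was called higher than in NA1 and 6 were called lower (median -0.48), and against NA3 5 were higher and 3 lower (0.37). The lower ones include the zinc finger factors Casz1 (means 0.395 and 2.53, -2.63) and Zbtb20 (1.48 ± 0.668 and 7.95 ± 0.316, -2.46). Without shared barcodes 1 factor was called higher and 5 lower than in NA1. Over all genes tested, 23.1% were called higher and 33.2% lower than in NA1, and 19.5% and 20.4% than in NA3. The 6 of 17 factors lower than in NA1 lie near the share of all genes and are not particular to this list. Casz1 has a mean below 0.5 in NA2, so that it could enter the test through other groups. Tfap2a and Ebf3 were at 0 in every NA2 profile.

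Npy (GRCm38 chr6:49822710-49829507, plus strand) was at 48.4, 31.2, 50.9, 35.1 and 39.1 UMIs per 10000 in NA2, a range that overlaps that of NA1 (44.0, 37.0, 57.4, 45.0 and 37.9). The difference to NA1 was -0.12 (0.19) with a limma adjusted p of 0.603. This hides a wide spread inside NA1, where the means were 82.4 in NA1a, 8.95 in NA1b and 43.3 in NA1c. NA2 was below NA1a by -1.03, above NA1b by 2.23 and not called against NA1c (-0.10), and with equal weight for the NA1 subtypes the difference turned to 0.37 (limma adjusted p = 0.0312). NA3 had 27.5, 16.4 and 15.4, below every NA2 mouse (difference 0.90, SE 0.23). Without shared barcodes Npy differed from NA1 by 0.14, not called, and from NA3 by 1.17. Gal, the neuropeptide galanin, followed a like order, with 13.3 ± 3.60 in NA2 against means of 23.0, 3.60 and 10.3 in NA1a, NA1b and NA1c. Of the 3 neuropeptide genes tested, 0 were called against NA1 (median 0.03) and 2 were called higher than in NA3 (median 0.90).

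Within NA2 the cells were not uniform in Npy: the lowest had 0, the quartiles lay at 4.56, 24.4 and 70.8, and the highest cell reached 172 UMIs per 10000. When the NA2 cells of each mouse were split at the middle of their Npy levels, a split made after seeing the data, the lower cells had a mean of 7.20 ± 0.997 and the upper cells 75.5 ± 16.6. Gal was 7.07 ± 3.76 in the lower and 19.6 ± 3.82 in the upper cells, and the calmodulin-binding peptide gene Pcp4 was 0.333 ± 0.452 and 3.87 ± 1.33. Sctr, the secretin receptor, was 0.174 ± 0.239 and 1.76 ± 0.751. All 3 were higher in the upper cells of 5 of 5 mice, with an exact sign-flip permutation p of 0.0625 each, the smallest possible, and 0.359 after adjustment over 23 genes. Without shared barcodes, in 4 mice, Gal was 8.12 ± 4.27 and 19.7 ± 6.17 and Pcp4 was 0.568 ± 0.662 and 3.24 ± 1.27, both higher in the upper cells of 4 of 4 mice (exact permutation p = 0.125, the smallest possible, and 0.575 adjusted), while Sctr was higher in 3 of 4. Tmsb4x was 76.3 ± 13.3 in the lower and 64.8 ± 9.96 in the upper cells, lower in 5 of 5 mice (exact permutation p = 0.0625), but without shared barcodes it was lower in 2 mice and higher in 2. Dbh was 10.8 and 10.6 and differed in both directions over mice, and nuclear noncoding RNA was 1.01% and 0.900% of UMIs, with 4646 and 4237 UMIs per cell.

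**Figure D3:**
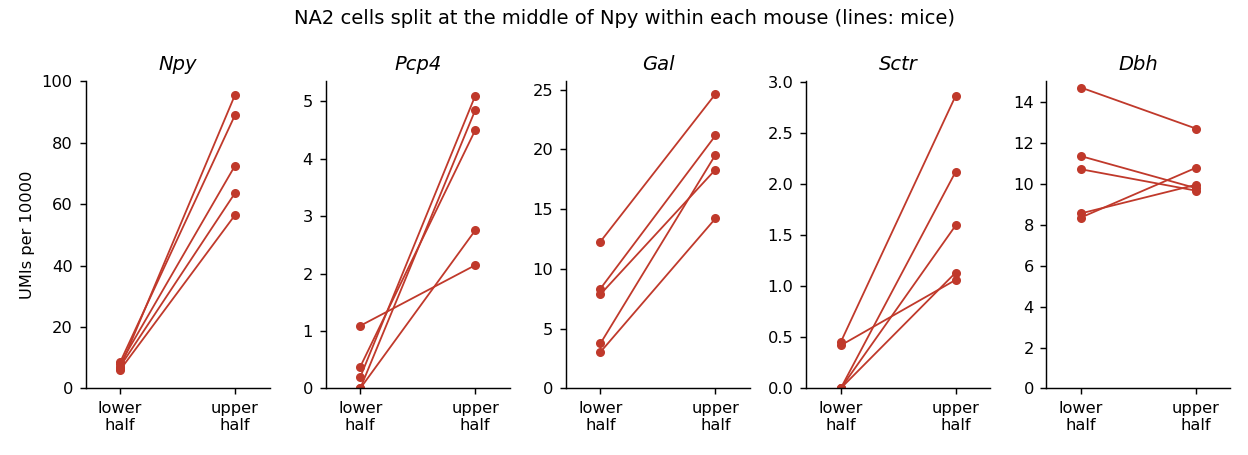
Mean level (UMIs per 10000, y axis, 1 panel per gene) of Npy, Pcp4, Gal, Sctr and Dbh in NA2 cells below and above the middle of Npy within each mouse, with 1 line per mouse. Pcp4, Gal and Sctr rise from the lower to the upper cells in each of 5 mice, and the Dbh lines cross, with means of 10.8 and 10.6.

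Calmodulin is the calcium sensor that calcium-activated kinases, phosphatases and channels share, and several genes code for it. Calm2 was at 26.2, 28.8, 22.2, 24.5 and 20.5 UMIs per 10000 in NA2, at 7.72, 6.57, 8.07, 8.64 and 7.61 in NA1 and at 8.79, 5.72 and 5.99 in NA3. Every NA2 mouse lay above every other profile. The differences of Calm2 were 1.64 (0.17) to NA1 with a limma adjusted p of 1.01e-07, and 1.83 (0.20) to NA3, with 1.24 and 1.46 without shared barcodes. NA2 was above each NA1 subtype in Calm2, whose means were 9.07, 7.88 and 6.50, and in the unmatched mice it was at 25.7 in NA2 and 6.99 in NA1.

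Calm3 differed less: 4.23 ± 0.929 against 3.05 ± 0.503, with a difference of 0.45 (0.18) and a limma adjusted p of 0.0382 that was 0.240 against NA3. Genes for proteins that calmodulin controls did not go with it, since of 17 tested, calmodulin genes included, 5 were called higher and 7 lower than in NA1 (median -0.21), and 4 each way against NA3 (median -0.19). Camk2b, a subunit of calmodulin-dependent kinase II, had means of 0.615 and 2.12 (-2.05). Without shared barcodes 3 were called higher and 5 lower than in NA1.

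Tmsb4x, thymosin beta 4, which holds actin monomers, and the profilins Pfn1 and Pfn2, which feed them to growing filaments, were higher in NA2. Tmsb4x (GRCm38 chrX:167207093-167209315, minus strand) was at 81.2, 82.3, 65.3, 68.4 and 53.2 in NA2, at 17.0, 13.6, 14.6, 14.9 and 11.8 in NA1 and at 23.6, 20.3 and 15.2 in NA3. The lowest NA2 mouse stood well above the highest of the other groups, with differences of 2.27 (0.16) and 1.76 (0.19), or 2.01 and 1.48 without shared barcodes. Pfn1 was at 5.77, 6.39, 4.45, 5.78 and 4.23 against 0.738, 0.593, 0.709, 1.31 and 0.917 in NA1 (2.54, SE 0.22, and 1.95 without shared barcodes). Of 20 actin genes tested, 13 were called higher than in NA1 and 1 lower (Tpm3, a tropomyosin, -1.09), with a median of 0.87, and 9 higher and 3 lower than in NA3 (0.79).

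Tubulins and neurofilaments were also higher. Tubb3, the neuronal beta tubulin, was at 36.1, 30.6, 33.8, 37.5 and 29.3 in NA2 and at 11.6, 7.68, 16.7, 14.6 and 10.6 in NA1, with no overlap and a difference of 1.49 (0.17). Tuba1a had 39.6 ± 4.40 and 11.4 ± 0.527 (1.78). Without shared barcodes Tubb3 and Tuba1a differed by 1.31 and 1.94. Of 25 stathmin, tubulin and growth cone genes, 18 were called higher and 2 lower than in NA1 (median 0.86), the lower pair being Crmp1 and the microtubule-binding Mapt, and 23 were higher and 0 lower than in NA3 (1.31). All 5 neurofilament and peripherin genes were called higher than in NA3 (median 1.41) and 4 of them than in NA1 (0.78). Without shared barcodes the counts higher and lower than in NA1 were 9 and 1 for actin, 19 and 2 for tubulins and growth cone genes, and 5 and 0 for neurofilaments, and against NA3 6 and 2, 22 and 0, and 5 and 0.

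Nuclear genes for oxidative phosphorylation were higher as a family. These genes code for subunits of the respiratory chain and the ATP synthase that are made in the cytosol and imported into mitochondria. Of 77 tested, 68 were called higher than in NA1 and 0 lower, with a median of 1.33 against -0.16 for all genes, and 62 higher and 0 lower than in NA3 (median 0.97). Their summed level ran from 348 to 459 UMIs per 10000 in NA2, from 141 to 193 in NA1 and from 168 to 233 in NA3. Atp5e, the epsilon subunit of the ATP synthase, had 7.65 ± 1.11 in NA2 and 1.71 ± 0.327 in NA1 (2.11, SE 0.18), and Ndufb6 of complex I 4.50 ± 0.323 and 0.960 ± 0.321 (2.18). Coa3, which helps assemble complex IV, had 4.32 ± 0.945 and 0.805 ± 0.0419 (2.26). Without shared barcodes 60 were called higher and 1 lower than in NA1, and 48 and 0 against NA3, and Atp5e differed from NA1 by 2.28.

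The 13 genes on the mitochondrial genome had other medians. Against NA1, 9 were called higher and 0 lower (median 0.86; 11 and 0 without shared barcodes), and against NA3 0 higher and 1 lower (median -0.02). The order of the nuclear and the mitochondrial lists against NA1 was not steady, with medians of 1.33 and 0.86 on all cells, 1.23 and 1.13 without shared barcodes, and 1.28 and 1.51 in the unmatched mice. The gene mt-Co2, a subunit of complex IV, was at 116, 123, 96.3, 113 and 141 in NA2, at 73.8, 57.0, 46.0, 50.9 and 63.6 in NA1 and at 170, 84.4 and 100.1 in NA3. NA2 was above NA1 in every mouse (1.03, SE 0.20) and overlapped NA3 (0.10, limma adjusted p = 0.782). The share of all mitochondrial UMIs per cell followed: medians of 6.60%, 5.61%, 5.26%, 6.45% and 8.84% in NA2 against 4.68%, 3.48%, 1.29%, 1.11% and 2.47% in NA1, higher in 5 of 5 mice (exact permutation p = 0.0625). Against NA3 the means were 6.97% ± 1.67 and 8.10% ± 4.45, higher in 2 of 3 mice (exact permutation p = 1). In the 4 mice left without shared barcodes the shares were 8.07% ± 1.87 in NA2 and 2.39% ± 1.64 in NA1. The authors had regressed out the mitochondrial share and the number of genes before clustering and had kept only cells with less than 15% mitochondrial UMIs, which bounds both shares.

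Nuclear respiratory factor 1 binds promoters of many respiratory genes, and its core, the letters GCGCA followed directly by their reverse complement TGCGC, was looked for in RefSeq promoters (GRCm38.p6, 250 bases before to 50 after each start). The core reads the same on both strands. It was present in 264 of 27025 promoters (0.977%), and in 5 of the 56 oxidative phosphorylation genes called higher that had a promoter in the set (8.93%; 56 of 68, 82.4%). The 3 of them with the largest differences to NA1 follow, 5′ to 3′ on the gene's strand with the core in capitals, to show what the matching letters look like in genes that were higher in NA2.
Atp5g2 (chr15:102671065-102671104, minus strand, core at -42): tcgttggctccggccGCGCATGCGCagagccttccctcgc
Ndufa11 (chr17:56717687-56717726, plus strand, core at -60): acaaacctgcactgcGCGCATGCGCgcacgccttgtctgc
Cox6a1 (chr5:115349096-115349135, minus strand, core at -162): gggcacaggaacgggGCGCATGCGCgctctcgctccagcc
These genes, a subunit c of the ATP synthase and subunits of complexes I and IV, differed from NA1 by 1.95, 1.83 and 1.36. A match of letters is a description and no binding site, and only 78.9% of the tested genes had a promoter in the set. Among those, the core was in 90 of 4133 (2.18%), in 34 of the 950 called higher (3.58%) and in 2 of 17 splicing genes called lower (11.8%). The letters CTTCCGG of ETS factors, on either strand, were in 13 of the same 56 promoters (23.2%), in 9.12% of all promoters, in 19.4% of those of tested genes and in 23.3% of those of genes called higher.

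Cytosolic ribosomal protein genes showed the same direction. Of 83 tested, 69 were called higher than in NA1 and 0 lower (median 1.20), and 50 higher and 0 lower than in NA3 (median 0.72), with 70 and 0 of 82 against NA1 and 30 and 0 against NA3 without shared barcodes. Rps3a1, a protein of the small subunit (GRCm38 chr3:86137940-86142702, minus strand), was at 15.3, 21.9, 12.2, 13.2 and 16.6 in NA2, at 3.40, 2.40, 3.15, 3.04 and 2.05 in NA1 and at 8.41, 6.32 and 5.88 in NA3. The groups were apart in every mouse, by 2.45 (0.19) and 1.16 (0.23). Ribosomal proteins took a median of 7.93% ± 0.729 of the UMIs of an NA2 cell and 3.52% ± 0.583 of those of an NA1 cell, higher in 5 of 5 mice (exact permutation p = 0.0625), and 7.82% against 5.13% in the 3 mice with NA3. In the 4 mice left without shared barcodes the shares in NA2 and NA1 were 7.95% ± 1.28 and 3.58% ± 0.658. Many of these genes have processed copies elsewhere in the genome, which could take or add reads.

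Antioxidant enzymes and proteasome subunits were higher as well. Mgst3, a membrane-bound glutathione transferase and peroxidase (GRCm38 chr1:167371966-167393841, minus strand), had the largest difference to NA1 among genes called higher that also pointed 1 way in all mice: 6.07, 7.56, 4.79, 7.64 and 4.68 in NA2 against 0.717, 0.507, 0.570, 0.863 and 0.471. NA3 was at 1.27, 0.818 and 0.830, and the differences were 3.10 (0.22) and 2.57 (0.27), or 2.71 and 2.22 without shared barcodes. Gpx4, which reduces lipid peroxides, was at 14.5, 9.53, 11.4, 10.5 and 9.77 in NA2 against 2.15 ± 0.232 (2.31), and Gpx1 had 3.29 and 0.586 (2.31). Prdx1, a peroxiredoxin, was higher than in NA1 by 2.25 but was not called against NA3 (0.56, limma adjusted p = 0.0708). Of 20 antioxidant and folding enzymes, 18 were called higher and 0 lower than in NA1 (median 1.35), and 13 higher and 1 lower than in NA3 (1.07). Of 38 proteasome genes, 23 were higher and 1 lower than in NA1 (0.93), the lower being the activator Psme4 (-2.68), and 16 higher and 2 lower than in NA3 (0.64). Glycolysis was mixed against NA1, with 8 higher, among them Gapdh (1.65), and 3 lower (Gpi1, Pfkl and Pfkp) of 16 (median 0.58), and 9 higher and 1 lower against NA3 (0.70). With shared barcodes removed the counts against NA1 were 16 and 0 of 19, 18 and 1, and 9 and 2. Against NA3 they were 9 and 1 of 19 (median 0.80), 10 and 1 of 38 (0.42), and 7 and 1 of 16 (0.76).

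**Figure D4:**
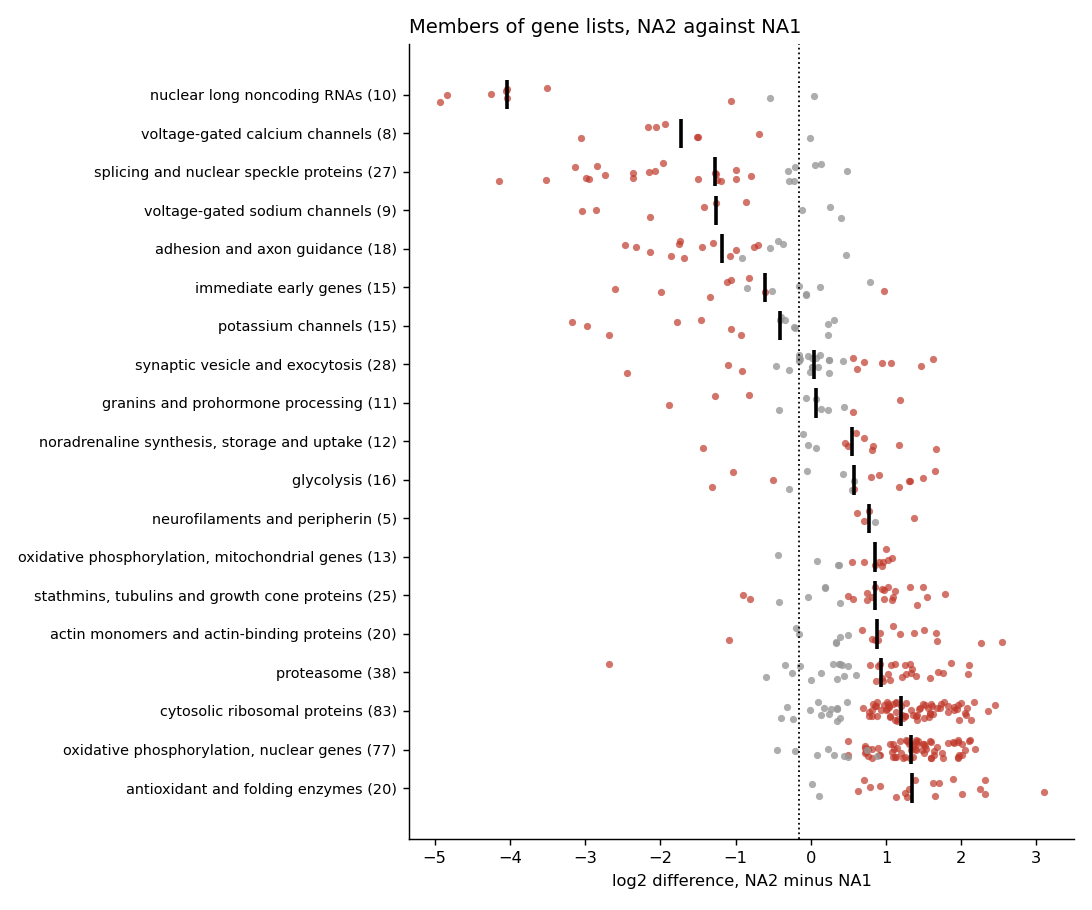
Log2 difference in level between NA2 and NA1 (x axis) for each tested member of 19 gene lists, red where called and grey where not, with a black bar at the list median and a dotted line at the median of all genes (-0.16). Oxidative phosphorylation (nuclear genes), ribosomal protein and antioxidant lists lie to the right with medians of 1.33, 1.20 and 1.35, and nuclear noncoding RNAs and splicing proteins to the left with -4.04 and -1.27.

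Ion channel genes were lower than in NA1. Of 9 voltage-gated sodium channel genes tested, 6 were called lower and 0 higher (median -1.26), of 8 calcium channel genes 7 and 0 (-1.72), and of 15 potassium channel genes 7 and 0 (-0.41). Without shared barcodes 4, 5 and 7 were called lower and 0 higher. Against NA3 the same lists had 1 lower and 2 higher (0.09), 2 lower and 1 higher (-0.76), and 4 lower and 3 higher (-0.30). Scn2a, a pore-forming sodium channel subunit (GRCm38 chr2:65620771-65767447, plus strand), was at 0.308, 0, 0.428, 0.291 and 0.378 in NA2 and at 1.89, 1.93, 2.91, 2.56 and 2.37 in NA1 (-2.85, SE 0.32). Cacna1a, the pore of P/Q-type calcium channels (GRCm38 chr8:84388440-84640246, plus strand), was at 0.289, 0.370, 0.561, 0.502 and 0.394 against 3.84, 5.97, 3.70, 4.24 and 3.43 (-3.05, SE 0.28). Kcnt1, a sodium-activated potassium channel, had 0.306 and 3.24 (-3.17). Scn2a lay below 0.5 in every NA2 profile, so that it passed the filter through other groups only. Such members could hardly be called higher, and the counts of these lists are partly fixed by them. The accessory subunit Cacnb3 was not called (-0.01).

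Adhesion and axon guidance genes had 13 called lower and 0 higher of 18 against NA1 (median -1.19), with the contactin Cntn5 at means of 0.259 and 1.39 (-2.47), but 2 each way against NA3 (-0.29). Without shared barcodes 12 were lower and 0 higher than in NA1. Here too members low in NA2 could enter through other groups, so that these counts are partly fixed by the filter. Among vesicle release genes 7 were called higher than in NA1 and 3 lower of 28 (median 0.04), and 17 higher and 1 lower than in NA3 (1.03). Rab3a, a GTPase on synaptic vesicles, had 7.36 ± 1.36 against 2.30 ± 0.223 (1.62), while Unc13a, the large priming protein, had 0.392 against 2.53 (-2.44). Snap25 had 8.15 ± 1.34 against 9.02 ± 1.06 (-0.15, limma adjusted p = 0.417). Of 11 granins and prohormone processing genes, 2 were higher (Scg2 and Scg5) and 3 lower (Chga, Pcsk1 and Cadps) than in NA1 (0.06), and 4 higher and 0 lower than in NA3 (0.10). The counts against NA1 without shared barcodes were 8 and 3 for vesicle release and 2 and 3 for granins.

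Genes on long stretches of the genome were lower and genes on short ones higher. The median genomic span (GENCODE M21, GRCm38, matched for 99.3% of the genes tested) was 10.2 kb for genes called higher than in NA1, 63.4 kb for genes called lower and 28.0 kb over all genes tested. Over 5 equal bins of span the median difference to NA1 was 0.73 (up to 8.57 kb), 0.21 (up to 19.6 kb), -0.12 (up to 39.6 kb), -0.65 (up to 87.7 kb) and -1.23 (up to 2257 kb). In the shortest bin 530 of 1040 genes were called higher and 83 lower, and in the longest 52 of 1040 and 651. Against NA3 the medians ran from 0.63 to -0.63, without shared barcodes against NA1 from 0.60 to -1.07, and in the unmatched mice from 0.54 to -1.18. The channel and adhesion genes above are long, with 147 kb for Scn2a (146677 bases) and 251807 bases for Cacna1a, and the ribosomal and actin genes short, with 2223 bases for Tmsb4x and 4763 for Rps3a1. How far span accounts for the difference of any 1 list was not tested.

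**Figure D5:**
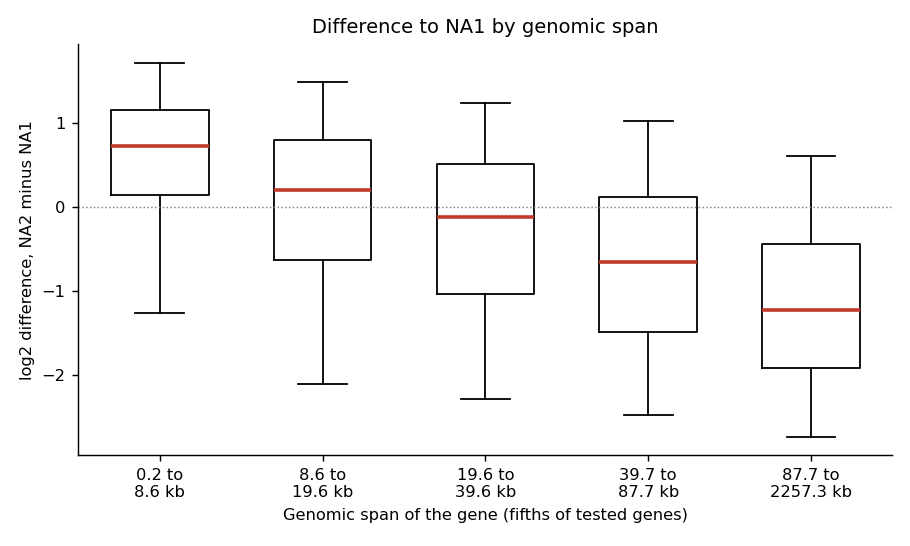
Log2 difference in level of NA2 to NA1 (y axis) for genes in 5 equal bins of genomic span (x axis, kb), as box plots with the quartiles as the box, the median as a red line and whiskers from the 5th to the 95th percentile. The medians fall from 0.73 in the shortest bin to -1.23 in the longest.

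Few receptor genes were called against NA1. Ngfr, the low-affinity neurotrophin receptor, was at 4.28, 2.58, 4.98, 4.75 and 2.48 in NA2 against 3.67 ± 0.824 in NA1 (0.02, limma adjusted p = 0.944), and was higher than in NA3 by 0.81. Of 9 neurotrophin, GDNF and cytokine receptor genes 0 were called higher and 1 lower (Ntrk2, -1.81) than in NA1 (median -0.14), and 2 higher and 3 lower than in NA3 (-0.42). Acetylcholine receptor genes, which receive the input from the spinal cord, had 0 of 3 called against NA1 (median -0.09) and 1 higher than in NA3 (0.91). Sodium pump genes had 3 higher and 1 lower of 10 against NA1 (0.29), and 5 and 3 against NA3 (0.75). Of 14 heat shock chaperones 4 were higher and 5 lower than in NA1 (0.06), the inducible Hsph1 among the lower (1.40 ± 0.138 and 6.75 ± 1.04, -2.18), and 2 higher and 5 lower than in NA3 (-0.38). Once shared barcodes were removed the counts against NA1 were 0 and 1 for neurotrophin and cytokine receptors, 0 and 0 for acetylcholine receptors, 2 and 2 of 9 for the sodium pump, and 3 and 4 for chaperones.

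Markers that the study used for other subtypes were mostly lower in NA2 than in NA1 together. Sctr, which marks NA1c, had a mean of 0.988 ± 0.401 in NA2 against 7.74 in NA1a, 0.750 in NA1b and 16.1 in NA1c. Of 12 such markers 1 was called higher (Vim, 0.48, limma adjusted p = 0.0488) and 7 lower than in NA1 (median -1.53), and 1 higher and 8 lower than in NA3 (-1.61), while against NA1b alone 4 were higher and 3 lower (-0.08). The study chose these markers on the same cells, so that the counts are no independent evidence of direction. Without shared barcodes Vim was not called (0.16).

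The comparison with NA3 was led by other genes. Apoe, the lipid carrier of satellite glia, was at 2.71, 3.58, 3.71, 2.37 and 2.15 in NA2, at 6.32 ± 2.88 in NA1 and at 213, 123 and 140 in NA3, a difference of -5.81 (0.24) between NA2 and NA3. Fabp7 (49.9 ± 21.3 in NA3 and 1.01 ± 0.429 in NA2, -5.37) and Igfbp6 (-5.31) were also far lower in NA2. All 10 satellite glia markers tested were lower than in NA3, with and without shared barcodes (median -4.91 on all cells), and their list summed to 6.26 to 14.0 UMIs per 10000 in NA2, 8.59 to 23.1 in NA1 and 231 to 454 in NA3. Schwann cell and fibroblast markers moved likewise: 4 of 5 and 5 of 5 were lower than in NA3 (medians -1.94 and -3.67), with sums of 3.29 to 4.65 and 0.686 to 1.51 in NA2 against 14.0 to 20.3 and 14.1 to 45.9 in NA3. Kcnj10 of satellite glia, Prx and Mag of Schwann cells and Lum of fibroblasts were at 0 in all NA2 profiles. Members of these lists that are low in NA2 could enter the test through NA3 alone and could hardly be called higher. The counts of these lists against NA3 are therefore partly fixed by the filter, most of all for the fibroblast genes. The part of glial RNA in the other differences to NA3 was not tested.

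Immediate early genes, which respond to activity or to handling of cells, were far below NA3 as well. Fos was at 1.03 ± 0.461 in NA2, 0.892 ± 0.247 in NA1 and 17.3 ± 0.942 in NA3 (-4.10 to NA3 and 0.12 to NA1, the latter not called). Of 15 tested, 13 were lower and 0 higher than in NA3 (median -3.08), and 7 lower and 1 higher (Jund) than in NA1 (-0.61), with 13 and 0, and 4 and 1, without shared barcodes. Their summed level was 10.4 to 12.7 in NA2, 10.2 to 14.96 in NA1 and 69.4 to 90.6 in NA3. The genes highest in NA2 over NA3 by rule were Ube2q2 (2.01 against 0.343, 2.78), Tm4sf4 (2.77), Acyp1 (2.76), Asns (2.66) and Resp18 (2.64), all at low levels.

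Against NA1, markers of other cell types were low on both sides. Satellite glia genes had 4 lower and 0 higher of 10 (median -0.65), Schwann cell genes 2 each way of 5 (0.26; sum in NA1 2.39 to 3.36) and fibroblast genes 2 lower of 5 (-0.74; sum in NA1 1.18 to 3.15). Of 2 endothelial genes 0 were called, and their list summed to 1.29 to 2.42 in NA2 and 0.905 to 1.68 in NA1. Immune, smooth muscle and red cell lists had no member tested, with sums in NA2 of at most 0.712, 0.370 and 0.167, and Ptprc, Tyrobp, Fcer1g, Tpm2, Des, Hba-a2, Hbb-bt and Alas2 at 0. Chromaffin cell genes summed to 3.40 to 7.99 in NA2 and 4.66 to 8.09 in NA1, with 1 of 2 called lower (Chga) and Penk at 0. Genes that overlap ribosomal RNA repeats had 3 of 4 lower than in NA1 (median -0.90) and 2 lower than in NA3 (-0.95), but varied up to 360 UMIs per 10000 between NA2 mice and from 51.4.

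Against the NA1 subtypes one by one, 1024 genes were called higher and 1981 lower than in NA1a (16.6% and 32% of 6185), 1331 and 2152 than in NA1b (21.5% and 34.8%), and 1448 and 2258 than in NA1c (23.4% and 36.5%), or 48.6%, 56.3% and 59.9% in all. Without shared barcodes 2430, 2935 and 3221 genes were called in these comparisons. The main lists kept their direction in each: nuclear oxidative phosphorylation genes had medians of 1.03, 1.40 and 1.66, ribosomal protein genes 0.86, 1.41 and 1.39, and nuclear noncoding RNAs -3.82, -3.76 and -3.93. NA2 cells also held fewer genes at equal depth, with 1142.6 ± 26.6 genes per 2000 UMIs against 1228.4 ± 18.1 in NA1, lower in 5 of 5 mice (exact permutation p = 0.0625), although the 50 most abundant genes took 25.2% ± 1.29 of their UMIs against 28.8% ± 1.59. Median UMIs per cell were 2733 ± 1197 in NA2 and 4894 ± 1870 in NA1, and without shared barcodes 3914 against 5460 in 4 mice, higher in 1 and lower in 3 (exact permutation p = 0.5).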

How the data were processed

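The authors aligned the reads of each library to GRCm38 (mm10 in the submitters' notes) with Cell Ranger 2.1.1, filtered cells on genes (above 500 and below 6000), on UMIs (below 20000) and on the mitochondrial share (below 15%), and integrated, clustered and named them with Seurat. No step that removes doublets is named, and none was applied here. As deposited, values are on a natural log scale, ln(1 + UMIs per 10000), for 19224 genes in 1303 neurons. UMIs were recovered from them, and 100% of the nonzero values lay within 0.01 of a whole number. All 1303 neurons passed the stated filter.

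Mean UMIs per 10000 were formed per mouse and group with at least 10 cells, a gene entered when its mean reached 0.5 in a number of profiles no smaller than the smallest group, and log2(mean + 0.1) was fitted in limma 3.58.1 (R 4.3.3) with trend and the mouse as a block. One fit held NA2, NA1 and NA3, and a second the NA1 subtypes apart. Such fold changes understate those of low genes. Groups of a mouse were paired because they carry the same mouse name and come from 1 sample. The Pearson correlation over genes between the deviations of NA2 and of NA1 from their group means was 0.03, -0.04, 0.06, 0.01 and 0.19 in replicates 1 to 5. Quality was compared by an exact two-sided sign-flip permutation test over mice. SciPy 1.17.1, pandas 2.3.3, NumPy 2.4.6 and matplotlib 3.10.9 under Python 3.11.15 gave the other values and the plots. The fits were tested on simulated data.

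Named genes were the 10 largest differences each way to NA1 and the 5 each way to NA3 among genes called with the same direction in every mouse, up to 4 members per list by size of difference to NA1, and marker genes that the paper names. Malat1, Snhg11, Calm2, Calm3, Ddc, Fos and the smallest members or sole exceptions of a list were named after their values were seen. Some genes that this rule names are not reported here. The subtype, the comparisons and the 36 gene lists were chosen with earlier results of these data known. The alternatives covered the pseudocount, the filter, centring, the block, depth, cell number, weighting, other scales, each mouse left out and, chosen after seeing the data, shared barcodes.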

Additional observations from a re-analysis of the deposited data

Results flagged for a closer look

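In 63 groups of 5 mice, 3 held a mouse that stood apart from the other 4 by more than Dixon's criterion, and chance flags about 1 in 20. Meg3 in NA1 was at 657 UMIs per 10000 in replicate 2, while the other mice had 329 to 423. Calm3 in NA1 was at 2.18 in the same replicate against 3.09 to 3.39 in the others. Median UMIs per cell in NA2 were 4864 in replicate 5 against 2046 to 2332 in the others, and that mouse has only 2 shared cells among its 17 NA2 cells. The calls against NA1 numbered 2831 without replicate 2 and 2674 without replicate 5.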

How the results depend on the processing

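Of 6303 values for single genes and lists under alternatives, 5952 kept their direction and their side of the threshold, 257 lost a call, 70 gained one, 21 without a test moved and 3 reversed. The reversed ones were Ube2q2 against NA1 when thinned to 2000 UMIs (-0.29, limma adjusted p = 0.728), Npy against NA1 with equal weight for the NA1 subtypes (0.37) and the neuropeptide median against NA3 without a filter (-0.088). List medians near 0 (granins, heat shock, vesicle release, neuropeptides, acetylcholine and other receptors, calmodulin) changed sign in some settings. The causes were not tested.

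Against NA1, 2949 calls became 1775 in cells of 2000 to 6000 UMIs (3 mice; NA3 could not be fitted there) and 1972 after thinning. Against NA3, 2091 became 1160 after thinning (2 mice) and 1303 with only these groups in the fit, and thinning gave 1712 against NA1a and 2194 against NA1b, with fewer mice or cells in each case. Leaving out 1 mouse gave 2532 to 2831 calls against NA1 and 1446 to 2259 against NA3. Without the replicate block, that is unpaired, they numbered 2894 and 2239. Counting each shared barcode once gave 2597 and 1815. Filtering at a mean of 0.1 gave 4350 and 2870. Centring each profile on its median gene moved the median difference to NA1 from -0.16 to 0.06 and the share of calls that were higher from 41.0% to 50.5%, and scaling to the other genes moved them to -0.34 and 32.8%.

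For quality against NA3, the mitochondrial difference was 2.11 percentage points without replicate 2 (range over mice left out -3.19 to 2.11) and 3.07 without shared barcodes, UMIs per cell differed by 948 without shared barcodes, and genes per cell at 1000 UMIs by 2.5. With 3 mice or fewer no such p can fall below 0.25.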
